A study of Volvox carteri with 12 samples.

Results

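A set of 69 loci of the green alga Volvox carteri stood at least 1.4 times higher under ultraviolet B light (UV-B) than in white light in each of the 3 somatic replicate pairs A, B and C. They were found among 9593 loci that could be matched by position across 11 libraries. The rule also asked for a middling somatic level (a mean of 5 to under 100 over the 6 somatic libraries). It asked as well for a ratio of the somatic to the gonidial mean from 0.2 to 5, meant to keep loci present in both cell types. In all, 3173 loci met these last 2 conditions and are called eligible below, and the 69 make up 2.17% of them. Another 41 eligible loci, or 1.29%, were lower by the same fold in every letter. The members were thus chosen by measured values, the somatic ratios and the somatic and gonidial means. Levels are the authors' FPKM, fragments scaled by transcript length and by library depth, divided here by a further factor per library.

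The libraries came from the wild-type strain Eve10, sampled between maturation and embryogenesis, and the labels give 4 groups of 3 biological replicates. White-light somatic cells and white-light gonidia grew at 28 °C in days of 16 h light and 8 h dark, under some 100 µmol of photons per second and square metre. UV-B-treated somatic cells and UV-B-treated gonidia had the same culture and 1 h of UV-B at 0.056 mW per square centimetre. No other allele or agent is named. The labels do not say what a replicate letter shares, nor whether cultures were pooled, so p-values measure the spread between these libraries.

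Volvox spheroids hold many small somatic cells, which swim with flagella and stay undivided, and a few large gonidia, the reproductive cells that cleave into new spheroids. UV-B damages DNA and the photosynthetic apparatus. In plants and in the related unicellular alga Chlamydomonas, the photoreceptor UVR8 binds COP1 on UV-B absorption, and genes of photoprotection, pigment synthesis and DNA repair are then transcribed. None of the 5679 reference IDs of matched loci was found in the supplied table of 14334 RefSeq genes, so the loci carry no gene name here. They are given by scaffold position, as in the deposited tables, and by reference ID where there is one, and neither the UV-B pathway nor the cell-type labels could be checked by named marker genes.

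In gonidia under UV-B, the library of replicate A had all of its 4073 reference rows at 0 and was left out, which left 2 UV-B gonidia libraries. The confidence limits in the tables imply between 14640000 and 33960000 fragments per library. Among the 459 loci specific to somatic cells (a mean of 20 FPKM or more that exceeded the gonidial one 5 times or more), the gonidia libraries of replicate B stood at 19.3% of the somatic mean in white light and 18.9% under UV-B, in the median. The other gonidia libraries stood between 3.18% and 5.83%. In bulk libraries, fewer somatic cells and less somatic RNA per cell cannot be told apart. Results in gonidia are therefore given by letter.

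The members spanned a wide range of somatic change. Since the rule used these ratios, they are described and not tested. The median UV-B over white-light ratio was 2.28 in letter A, 2.11 in letter B and 2.36 in letter C. It was at least 2 in every letter at 22 members and at least 3 in every letter at 7. At 46 of the 69 members all 3 UV-B somatic libraries lay above all 3 white-light somatic libraries, as did 4.22% of eligible loci. At the others the 2 groups overlapped. The 95% confidence limits of the UV-B and the white-light library lay apart in all 3 letters at 68 members, as at 5.20% of eligible loci, where the limits cover the authors' estimate within a library and not the spread between cultures.

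**Figure D1:**
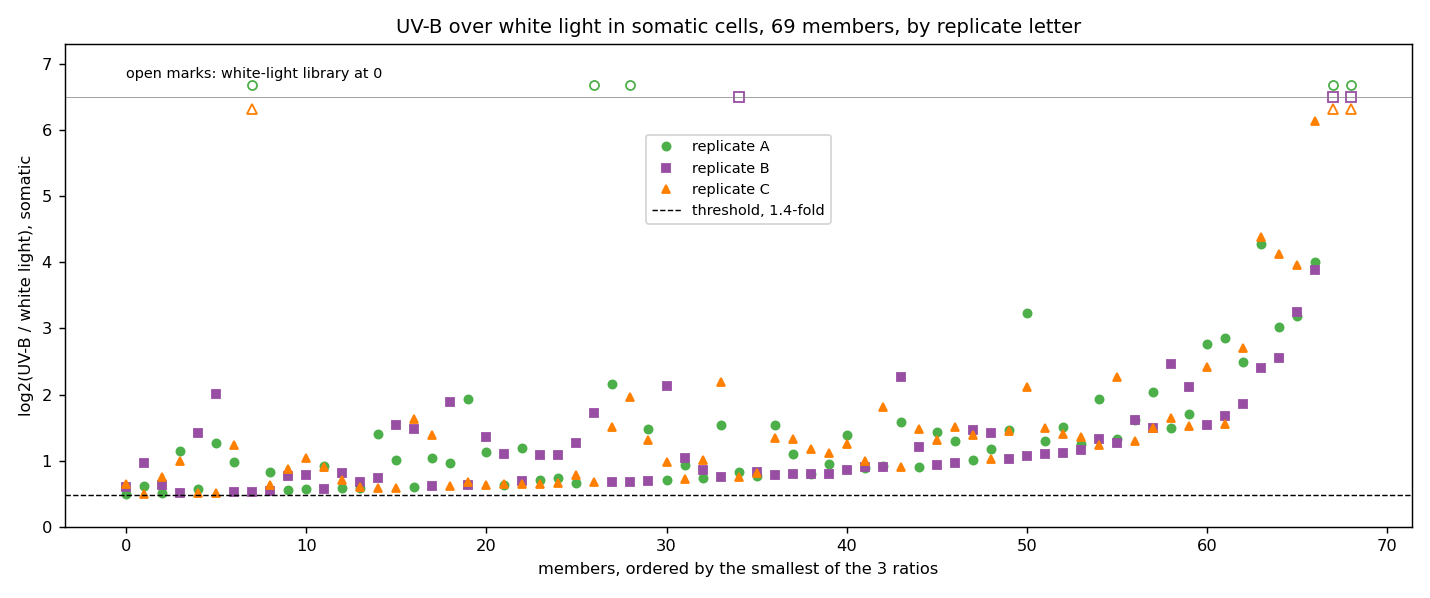
The log2 ratio of UV-B to white light in somatic cells is plotted for each of the 69 members, ordered by the smallest of its 3 ratios, with a mark for each replicate letter and a dashed line at the threshold of 1.4. Most members lie close above the line, the median of letter B is 2.11, and open marks at the top are letters whose white-light library was listed at 0.

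The threshold cut through a continuous distribution. Just inside it, the locus on scaffold 2 from 4453160 to 4458251 had ratios of 1.41, 1.52 and 1.56 in A, B and C. The locus on scaffold 3 from 618043 to 618383 had a lowest ratio of 1.42 and that on scaffold 2 from 229650 to 241443 one of 1.42. Just outside it, Vocar20009718m.g.2.0 (scaffold 1, 3043815 to 3047065) had a lowest ratio of 1.39. The loci on scaffold 40 from 490300 to 493719 and on scaffold 21 from 357998 to 359488 followed at 1.39 and 1.38. The sets on either side of the line differ little.

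Gene rows in the deposited tables can overlap, and the authors' software then divides the fragments between them. At 35 of the 69 members another row covered more than 10% of the member in at least 1 library, as at 47.1% of eligible loci. A level for the whole stretch was therefore computed in 2 ways, both chosen after the data had been seen. The stretch ran to the outer borders of the member and of rows covering more than 10% of it. All rows lying at least 50% inside the stretch were summed, so it can hold rows that do not touch the member. The first used the fragment numbers implied by the confidence limits, and 23 of the 69 members stood at least 1.4 times higher under UV-B in every somatic letter. It kept 14 of the 34 members that no other row covered by more than 10%, where there is little to share. The second way, FPKM times row length, was adopted after that outcome was known and is used below. On it 49 of the 69 members stood at least 1.4 times higher in every somatic letter. These were 33 of the 34 members that no other row covered by more than 10%, and 16 of the other 35. For the remaining 20 loci a rise of 1.4 times in every somatic letter holds for the row and not for the stretch. Some of these stretches run far beyond the row, and their ratios do not describe the row alone. Around the row on scaffold 1 from 13132012 to 13133065, for example, the stretch ran from 12642885 to 13177279. Such wide stretches enter all the stretch counts given here. Of the 69 stretches, 56 stood above 1 in every somatic letter. Row length includes introns, so this level is approximate, and the count of 49 depends on the way chosen.

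Some of the members with the largest ratios depended on this distinction. Vocar20002813m.g.2.0 (scaffold 2, 455263 to 456043) and the locus on scaffold 34 from 521074 to 525819 read 0 in every white-light somatic library (3 of 3), so their ratios have no finite value. On the whole stretch the UV-B over white-light ratios were 0.782, 0.765 and 0.776 around the first and 0.996, 0.735 and 0.911 around the second. By implied fragments the second stretch stood at 1.52, 1.56 and 1.64, so the 2 ways differ there. A row on scaffold 28 from 327277 to 341702 read 2.36, 1.51 and 1.84 FPKM in white-light and 13.2, 5.43 and 12.0 FPKM in UV-B somatic cells. Its row was longer in every UV-B than in every white-light somatic library, and the stretch gave 1.33, 0.387 and 1.68. By implied fragments it gave 1.21, 2.79 and 1.23, which turns letter B. These 3 loci are among the 10 members with the largest smallest ratio. Of the 10, FPKM times length kept the other 7 at 1.4 or more in every letter and implied fragments kept 5 of the 10.

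The next loci described are 5 of these 10, of which 4 carry reference IDs. Vocar20010064m.g.2.0 (scaffold 40, 99805 to 104018) stood at 1.69, 1.68 and 1.54 FPKM in white-light somatic cells and at 32.8, 8.87 and 32.2 FPKM under UV-B. Both lights were far apart, with letter B the weakest at 5.27 times. In gonidia it read 10.9, 4.83 and 7.17 FPKM in white light (A, B, C) and 13.7 and 43.6 FPKM under UV-B (B, C). Its UV-B gonidia libraries lay above all white-light ones. Its row was shorter in every UV-B than in every white-light somatic library.

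Vocar20006504m.g.2.0 (scaffold 7, 627675 to 630427) had the same row borders in all 11 libraries and no overlapping row. It stood at 2.63, 0.516 and 0.950 FPKM in white-light somatic cells and at 21.4, 3.04 and 16.6 FPKM under UV-B. In gonidia it read 1.4, 3.95 and 1.62 FPKM in white light and 7.46 and 31.3 FPKM under UV-B. The UV-B library C of gonidia held the highest of all 11 values, and the groups did not overlap in either cell type.

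Vocar20009593m.g.2.0 (scaffold 1, 776071 to 778158) stood at 1.21, 0.524 and 0.279 FPKM in white-light somatic cells and at 19.3, 7.73 and 19.6 FPKM under UV-B. In gonidia it read 7.29, 4.505 and 5.12 FPKM in white light and 10.4 and 19.8 FPKM under UV-B, again without overlap. Its rows were longer in every UV-B than in every white-light somatic library. The whole stretch gave 18.1, 15.3 and 78.0 times in the somatic letters, so the ratios were as large there.

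Vocar20005834m.g.2.0 (scaffold 110, 17889 to 19213) stood at 5.92, 1.73 and 3.998 FPKM in white-light somatic cells and at 54.0, 16.5 and 61.9 FPKM under UV-B. In gonidia it read 32.9, 9.81 and 21.4 FPKM in white light and 17.9 and 60.6 FPKM under UV-B. The B libraries were the lowest within every group, so the gonidia groups overlapped although both letters were higher under UV-B, at 1.82 and 2.83 times. On the whole stretch the somatic ratios were smaller, at 5.22, 2.82 and 5.59, and by implied fragments 2.44, 1.26 and 4.79. A row on scaffold 65 from 24422 to 30383 stood at 1.44, 1.17 and 2.29 FPKM in white-light and 9.75, 3.40 and 12.2 FPKM in UV-B somatic cells. It read 4.27, 3.56 and 2.95 FPKM in white-light gonidia and 5.09 and 8.43 FPKM in UV-B gonidia, with no overlap of the groups.

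**Figure D2:**
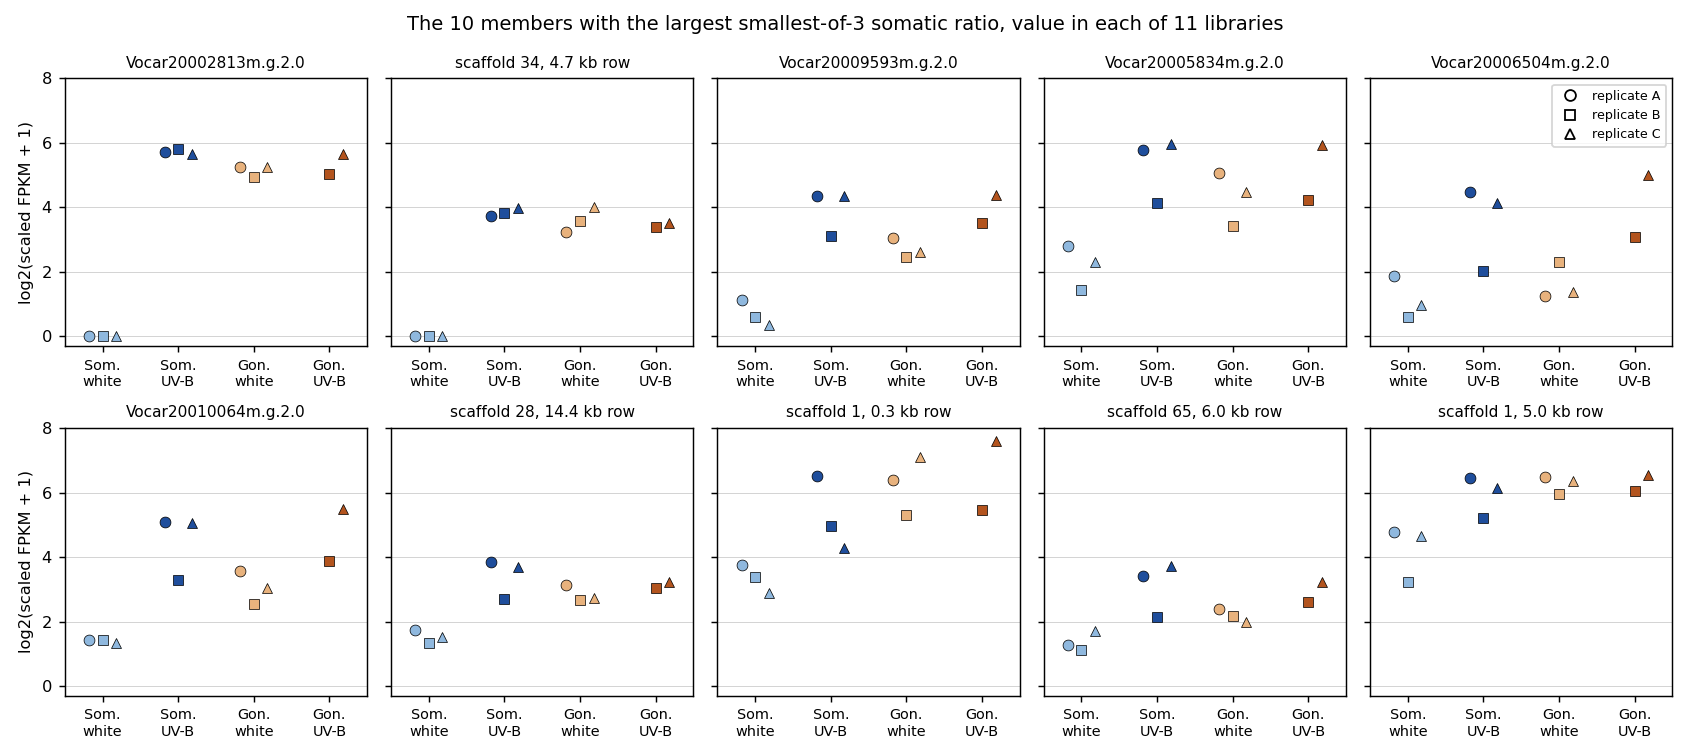
Each panel shows a member among the 10 with the largest smallest somatic ratio, as log2(scaled FPKM + 1) in each of 11 libraries, with groups on the horizontal axis and marks for the replicate letters. Vocar20010064m.g.2.0, Vocar20006504m.g.2.0 and Vocar20009593m.g.2.0 are higher under UV-B in both cell types, while Vocar20002813m.g.2.0 and the scaffold 34 locus are at 0 only in white-light somatic cells.

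Of the 10, the remaining 2 stood high in gonidia in both lights. The locus on scaffold 1 from 11172512 to 11177547 read 26.6, 8.32 and 24.1 FPKM in white-light and 86.6, 36.1 and 69.5 FPKM in UV-B somatic cells. In gonidia it lay between 61.5 and 91.8 FPKM in all 5 libraries. Other rows covered it in 8 libraries, and the stretch gave 2.71, 2.35 and 2.12 in the somatic letters, or 1.495, 1.095 and 1.43 by implied fragments. The row on scaffold 1 from 4086479 to 4086773 spans 295 bp by these borders, which come from different libraries. FPKM of such short rows is imprecise. This row was shorter in every UV-B than in every white-light somatic library. It implied 30, 33.4 and 26.9 fragments in white-light and 39.5, 14.7 and 30 in UV-B somatic cells. The part of row length in its ratios was not tested. It read 12.5, 9.41 and 6.34 FPKM in white-light and 90.5, 30.1 and 18.6 FPKM in UV-B somatic cells, and 38.4 to 194 FPKM in gonidia. Its stretch gave 4.16, 2.12 and 2.04 in the somatic letters, but 1.101, 0.664 and 0.992 by implied fragments.

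The change of the members in gonidia was not used to choose them, so it could be tested. In a limma fit to log2(FPKM + 1) over 7540 loci, with Benjamini-Hochberg adjustment of the p-values across these loci, none of the 69 members passed an adjusted p of 0.05. Over all loci 0 were called higher (0%) and 1 was called lower (0.0133%), an eligible locus (0.0315% of those). With the letter within cell type as a replicate block, 0 members and 2 loci were called. Without adjustment, 5 members had a p under 0.05 and were higher under UV-B, and 1 was lower, against 0.955% and 0.836% of all loci tested and 0.725% and 0.504% of eligible ones (limma). On simulated data of the same size this fit called 7.5% of loci given a change of 1 log2 unit and 69.5% of loci given 2 units, so a change of 1 log2 unit was mostly not detectable with 2 UV-B libraries.

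By value, the members leaned to higher levels under UV-B in gonidia too. The median log2 change was 0.09 over the members and 0.00 over all loci tested. The members' median was 0.178 without white-light gonidia A or with the replicate block, 0.052 without white-light gonidia B and 0.0588 without UV-B gonidia C. Both letter pairs were higher under UV-B at 41 of the 69 members (59.4%), against 23.0% of all loci tested and 23.3% of eligible ones. Both were lower at 7 members (10.1%), against 28.9% of all loci and 29.7% of eligible ones, and the letters went apart at 21. A ratio of at least 1.4 in both letters was found at 10 members (14.5%), against 2.03% of all loci and 1.32% of eligible ones. A ratio of at most 1/1.4 in both was found at 2 members (2.90%), against 2.32% of all loci and 1.17% of eligible ones. The median standard error of the log2 change in the limma fit was 0.438 at members. It was 0.322 over all loci tested and 0.288 over eligible ones. Loci with more spread pass a fixed fold more easily in either direction, and the part of this in the counts was not tested. Both UV-B libraries lay above all 3 white-light gonidia libraries at 12 members (4.64% of all and 4.88% of eligible loci) and below them at 2 (4.72% and 4.63%).

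The lean was seen in each letter taken alone. In letter B 21 members reached 1.4 (9.35% of all and 7.53% of eligible loci) and in letter C 18 did (11.8% and 8.54%). Among the 34 members that no other row covered by more than 10%, 7 reached 1.4 in both letters. On the whole stretch 8 of the 69 did, and these 8 also stood at 1.4 or more in every somatic letter. The matching shares over other loci were not computed, so these counts alone do not show a lean. Across the 67 members with a white-light somatic level above 0, the somatic and gonidial log2 changes correlated at Pearson r = 0.424 and Spearman rho = 0.165. Over the 3104 eligible loci that are no members these were 0.0784 and 0.159. At the members by gonidia letter, r was 0.218 and rho 0.185 in B, and r was 0.523 and rho 0.352 in C. The points share libraries and scaling factors and the somatic ratios chose the members, so the values are a description.

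**Figure D3:**
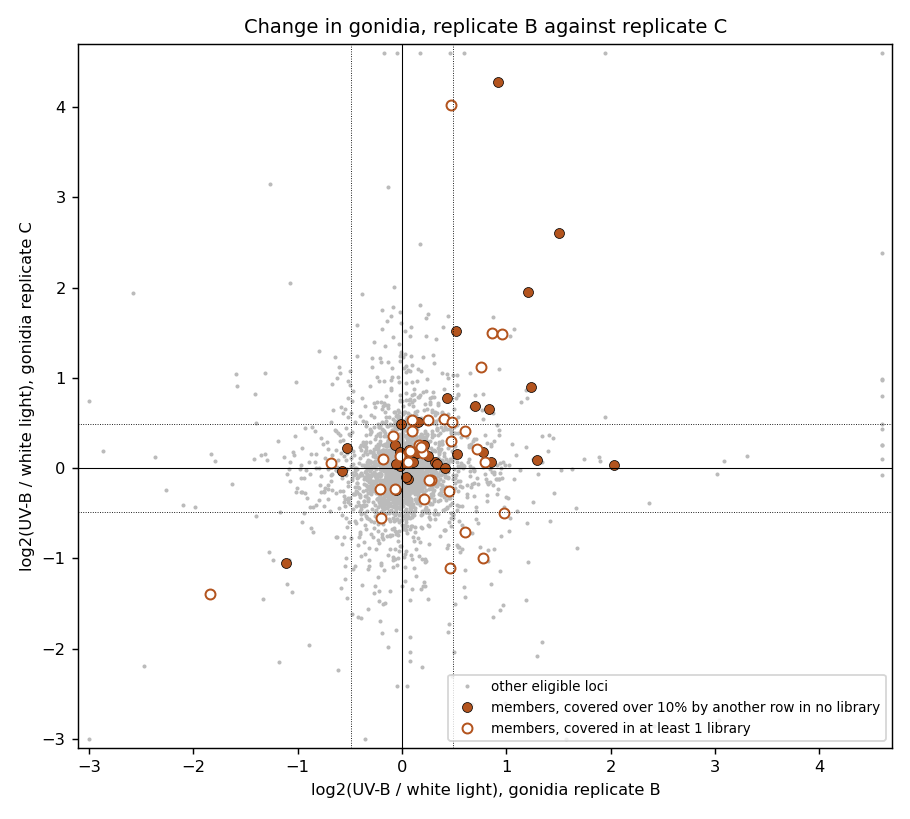
The log2 ratio of UV-B to white light in gonidia is plotted for replicate B against replicate C, for the members (filled where no other row covered over 10% of the locus, open where one did) and the other eligible loci (grey), with dotted lines at 1.4-fold. Of the members, 41 have both ratios above 1 and 7 have both below 1, ratios beyond the frame are drawn at its edge, and the member listed at 0 in the UV-B library C is not drawn.

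The members with the largest log2 changes in gonidia and the same sign in both letters included 3 of the loci above. The log2 change was 2.40 ± 0.80 (SE) at Vocar20006504m.g.2.0, 1.63 ± 0.60 at Vocar20010064m.g.2.0 and 1.24 ± 0.44 at Vocar20009593m.g.2.0, each with an adjusted p of 1 (limma). Without UV-B gonidia C these changes were 1.43, 0.829 and 0.80, and without UV-B gonidia B they were 3.36, 2.43 and 1.67. A row on scaffold 36 from 719338 to 723426 read 6.36, 7.04 and 5.31 FPKM in white-light gonidia and 13.7 and 14.9 FPKM under UV-B. Its log2 change was 1.08 ± 0.36 (SE). In somatic cells it read 3.48, 1.19 and 3.91 FPKM in white light and 9.84, 6.54 and 12.2 FPKM under UV-B. Neither cell type's groups overlapped, but other rows covered this locus in 7 libraries. The stretch ran from 695455 to 966447, far beyond this locus, so its ratios do not describe the locus alone. They were 0.605, 0.626 and 1.41 in the somatic letters and 1.01 and 1.26 in gonidia.

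The locus on scaffold 1 from 2520515 to 2522086 stood far higher in UV-B gonidia C than in any other library. UV-B gonidia B also lay above all white-light gonidia libraries there. The locus read 12.0, 24.4 and 8.06 FPKM in white-light gonidia, 33.9 FPKM in the UV-B library B and 131 FPKM in the UV-B library C. Its log2 change was 2.23 ± 0.65 (SE), and 1.28 without UV-B gonidia C. In somatic cells it read 7.33, 3.95 and 7.94 FPKM in white light and 15.7, 6.85 and 19.9 FPKM under UV-B. Another row covered it in every library, and the stretch gave 1.39 in gonidia letter B and 16.6 in letter C. A row on scaffold 25 from 484964 to 493500, chosen after its values were seen, showed no overlap in either cell type. It read 7.48, 7.67 and 10.9 FPKM in white-light and 20.6, 15.7 and 30.0 FPKM in UV-B somatic cells, and 7.89, 3.70 and 6.45 FPKM in white-light and 8.72 and 12.0 FPKM in UV-B gonidia.

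Both gonidia letters were lower under UV-B at the 7 members counted above, and at 2 of them no libraries overlapped. The locus on scaffold 23 from 1755238 to 1762009 read 1.43, 3.67 and 3.23 FPKM in white-light somatic cells and 13.5, 7.73 and 14.0 FPKM under UV-B. In gonidia it read 19.98, 13.8 and 16.6 FPKM in white light and 6.39 and 8.02 FPKM under UV-B. The log2 change of -1.11 ± 0.34 (SE) had an unadjusted p of 0.00947 and an adjusted p of 1 (limma). The groups did not overlap in either cell type, no row covered more than 8.19% of it, and the stretch gave 0.430 and 0.479 in gonidia. By implied fragments it gave 0.655 in letter B and 1.17 in letter C. The locus on scaffold 1 from 8793292 to 8799555 read 7.91, 7.03 and 8.94 FPKM in white-light and 21.4, 13.4 and 22.1 FPKM in UV-B somatic cells. In gonidia it read 19.9, 20 and 16.0 FPKM in white light and 13.5 and 15.7 FPKM under UV-B. Its log2 change was -0.33 ± 0.24 (SE). Its stretch gave 2.73, 1.89 and 2.41 in the somatic letters and 0.676 and 0.974 in gonidia. By implied fragments its stretch gave 1.76, 0.952 and 2.41 in the somatic letters and 1.11 and 0.846 in gonidia.

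Another 4 named members stood lower in both gonidia letters, each by less than its standard error. Vocar20006020m.g.2.0 (scaffold 12, 1636862 to 1643823) was at -0.64 ± 0.95 (SE), with 0.956, 7.78 and 1.25 FPKM in white-light and 2.17 and 0.478 FPKM in UV-B gonidia. It was at 0, 10.6 and 4.22 FPKM in white-light and at 14.6, 17.0 and 16.4 FPKM in UV-B somatic cells, and the stretch gave somatic ratios of 0.810, 0.540 and 0.842. In gonidia the stretch gave 0.241 in letter B and 118 in letter C, so the row and the stretch differ in direction there. The log2 changes were -0.16 ± 0.23 on scaffold 34 from 521074 to 525819 and -0.15 ± 0.23 on scaffold 2 from 4453160 to 4458251. It was -0.14 ± 0.30 at Vocar20006221m.g.2.0 (scaffold 12, 2305200 to 2313221; SE in each case). This last locus read 8.69, 6.35 and 8.15 FPKM in white-light and 17.2, 9.12 and 19.2 FPKM in UV-B somatic cells, against 5.37 to 7.503 FPKM in all gonidia libraries. By implied fragments its stretch gave 1.09, 1.24 and 0.813 in the somatic letters.

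The gonidia letters were also counted by which cell type held more RNA, with no test of a difference. Of the 25 members whose somatic mean exceeded the gonidial mean, 12 reached 1.4 in gonidia letter B and 5 in letter C, against 8.38% and 9.35% of eligible loci of that kind. Of the 44 others, 9 did so in B and 13 in C, against 6.35% and 7.41%. The B libraries are those with the higher levels of somatic-specific loci, and the part of this in the counts was not tested. Vocar20005997m.g.2.0 (scaffold 12, 445807 to 451065) read 5.79, 5.77 and 15.9 FPKM in white-light and 17.3, 27.8 and 29.9 FPKM in UV-B somatic cells. In gonidia it read 2.94, 9.27 and 2.84 FPKM in white light and 22.7 and 3.02 FPKM under UV-B, so the higher values were those of letter B alone. Vocar20009534m.g.2.0 (scaffold 1, 8095148 to 8097547) was chosen after its values were seen. It read 0.655, 2.99 and 0.151 FPKM in white-light gonidia and 4.11 and 0 FPKM under UV-B. Its gonidial mean, like that of Vocar20006020m.g.2.0 above, rested mainly on the B libraries, so neither was shown to be shared by both cell types.

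Relative to gonidia, the members stood low in somatic cells in white light. Their median ratio of somatic to gonidial mean was 0.480 in white light and 0.964 under UV-B, against 1.17 in both lights over eligible loci. All 3 white-light somatic libraries lay below all 3 white-light gonidia libraries at 41 members (25.3% of eligible loci), and above them at 3 (37.3% of eligible loci). Under UV-B the somatic libraries lay below both gonidia libraries at 12 members (25.1% of eligible loci) and above them at 19 (37.5% of eligible loci). A rule that asks for low white-light and high UV-B somatic values moves these ratios in this direction by itself, so they are a description. In particular, the 7 members with ratios of at least 3 in every letter all had a somatic mean below the gonidial one in white light, and 2 of them under UV-B.

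**Figure D4:**
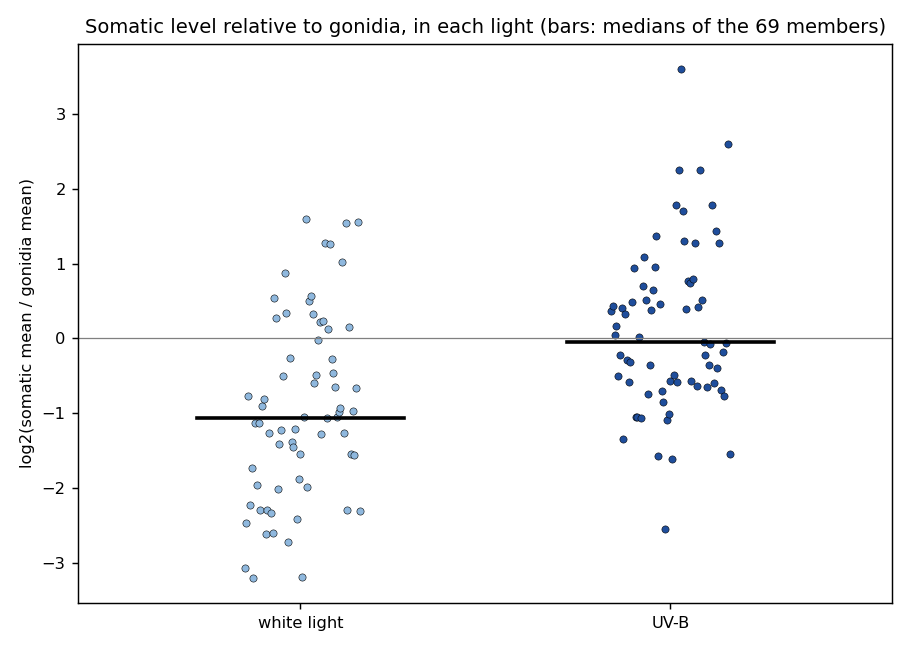
The log2 ratio of the somatic to the gonidial mean is plotted for each member in white light and under UV-B, with a bar at the median of the 69 members; a value of 0 means equal levels, and the 2 members with no white-light somatic signal are not drawn. The median ratio is 0.480 in white light and 0.964 under UV-B.

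By the mean over the 11 libraries, the 4 most abundant members include both scaffold 1 rows of the top 10 described above. The rule caps the somatic mean and not the gonidial one, so this order favours gonidial levels. A row on scaffold 18 from 235157 to 241109 read 55.3, 16.9 and 42.8 FPKM in white-light and 133, 68.0 and 61.3 FPKM in UV-B somatic cells, and 95.1 to 148 FPKM in gonidia. In a single library another row covered it in full. The stretch therefore ran from 39660 to 245644, far beyond this row, and its ratio in letter C was 0.923. The row itself implied 191, 743 and 226 fragments in white-light and 622, 208 and 1664 in UV-B somatic cells. These numbers are not scaled for library depth, and letter B fell where its FPKM rose. Vocar20000743m.g.2.0 (scaffold 19, 615168 to 617573) had no overlapping row and the same borders in all 11 libraries. It read 24.5, 30.1 and 30.6 FPKM in white-light and 54.3, 42.8 and 61.3 FPKM in UV-B somatic cells, with no overlap. Its gonidia libraries held 88.0, 58.0 and 105 FPKM without UV-B and 60.4 and 119 FPKM with it, where the letters differed more than the lights.

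Some members lay side by side. There were 6 pairs within 20000 bp of each other on a scaffold, and in 3 of these the rows overlapped, by 48 to 62 bp. On scaffold 8 the row from 254017 to 254687 and Vocar20004736m.g.2.0 (254626 to 259647) overlapped by 62 bp. The first read 11.1, 23.3 and 19.3 FPKM in white-light and 25.2, 62.7 and 39.2 FPKM in UV-B somatic cells. The longer row read 9.01, 12.5 and 17.9 FPKM and 17.6, 46.1 and 27.5 FPKM. In gonidia both were highest in letter B, at 28.9 and 51.5 FPKM for the shorter and 23.4 and 40.1 FPKM for the longer row (white light, UV-B), against 4.75 to 10.7 FPKM in the other gonidia libraries. Whether the rows of such a pair belong to a single gene was not tested.

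The pair on scaffold 7, Vocar20006358m.g.2.0 (699457 to 700445) and the row from 700398 to 701578, overlapped by 48 bp. They read 3.88, 2.41 and 3.27 FPKM and 3.90, 4.29 and 3.97 FPKM in white-light somatic cells. Under UV-B these became 7.82, 6.64 and 8.52 FPKM and 9.59, 8.34 and 11.3 FPKM, and gonidia held 9.88 to 13.8 FPKM in both lights. The pair on scaffold 15, from 2582000 to 2587725 and Vocar20008065m.g.2.0 (2587668 to 2591291), overlapped by 58 bp, with lowest somatic ratios of 1.46 and 1.57 and gonidia ratios between 0.986 and 1.15. On scaffold 110 Vocar20005834m.g.2.0 lay 6506 bp from Vocar20005835m.g.2.0 (25720 to 27535). This neighbour had much smaller ratios of 1.71, 1.78 and 1.77 in somatic cells and 1.04 in both gonidia letters.

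On scaffold 1 the row from 770906 to 775931 ended 139 bp before Vocar20009593m.g.2.0. It read 9.88, 5.78 and 10.4 FPKM in white-light and 16.2, 25.2 and 20.6 FPKM in UV-B somatic cells, and 26.97 to 41.2 FPKM in gonidia with ratios of 0.989 and 1.02, unlike its neighbour. By implied fragments the stretch of the row from 770906 gave 2.47, 0.653 and 2.23 in the somatic letters, which turns letter B. The last pair, on scaffold 2, was Vocar20002546m.g.2.0 (260814 to 263938) and the row from 229650 to 241443, which lay 19370 bp apart. The first read 22.8, 27.9 and 50.9 FPKM in white-light and 49.8, 71.1 and 78.9 FPKM in UV-B somatic cells. In gonidia it read 7.94, 29.4 and 4.52 FPKM in white light and 47.9 and 7.29 FPKM under UV-B, with the B libraries far above the others.

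A pair on different scaffolds, chosen after their values were seen, had nearly equal values. Vocar20012885m.g.2.0 (scaffold 3, 934540 to 935866) and Vocar20006832m.g.2.0 (scaffold 72, 251045 to 252370) are 1327 and 1326 bp long and differed by at most 0.119 log2 units in any of the 11 libraries. The first read 12.7, 9.43 and 13.7 FPKM in white-light and 30.2, 21.2 and 35.4 FPKM in UV-B somatic cells, and 27.04 to 85.8 FPKM in gonidia. Rows so alike may share reads of near-identical copies, so their separate levels are uncertain and they may count as 1 observation.

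The rows of the members were like those of eligible loci in some respects and unlike them in others. A reference ID was carried by 24 of the 69 members (34.8%) and by 31.8% of eligible loci. The median row length was 5026 bp against 5004 bp. Row borders were the same in all 6 somatic libraries at 17 members (24.6%), against 18.9%. Scaffold 1 held 17 members (24.6%), against 14.4% of eligible loci. Every UV-B somatic row was longer than every white-light somatic row at 7 members (10.1%), against 2.71% of eligible loci. At least 1 white-light somatic library was listed at 0 at 6 members (8.70%), against 1.58%, and on the whole stretch 2 of these 6 stood at least 1.4 times higher in every letter. Both last features belong to the libraries that chose the members, and their part in the ratios was not tested. The least covered somatic library implied fewer than 100 fragments at 20 members (29.0%), against 10.1% of eligible loci. The rule asks for low white-light somatic values, so this count too rests on libraries that chose the members. Median implied fragments of members ran from 242 to 452 in white-light and from 468 to 859 in UV-B somatic libraries. At eligible loci they ran from 685 to 1034 and from 649 to 937.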

How the data were processed

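The authors' deposited tables, 12 in number, give FPKM per gene row of a library with 95% confidence limits, per the file headers. The submitters' processing notes list TopHat2 (version 2), Cufflinks (2.0.1) and Cuffdiff (2), without the genome build. Here, rows of different libraries were linked where the overlap reached 80% of the longer row, and linked sets with a single row in each of the 11 usable libraries were kept. FPKM was then divided by median-of-ratios factors. The 4 group means were fitted with limma 3.58.1 (R 4.3.3) to log2(FPKM + 1), with an intensity trend, across 7540 loci that reached 1 FPKM in 3 libraries or more. The pseudocount understates changes of low loci. Matching used Python 3.11.15 and pandas 2.3.3, and the fit was tested on simulated data.

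Implied fragments are the squared ratio of FPKM to its standard error as the upper limit gives it, and cover counting error only as far as those limits do. The labels do not say what replicate letters share, but deviations from group means correlated in every same-letter pair. The correlations were 0.351, 0.447 and 0.202 in somatic cells (A, B, C) and 0.705 and 0.624 in gonidia (B, C). Ratios were formed within letters because the rule for members sets them so. The limma fit as reported held no letter term, and fits with the letter as a block were alternatives. With 2 UV-B gonidia libraries, B and C deviate by equal and opposite amounts in that group. Borders are those most frequent over the libraries. Members and lists were chosen with earlier results of these data known. Named loci are the 10 with the largest smallest somatic ratio, any called in gonidia, the 6 highest and 6 lowest log2 changes in gonidia among members with both letters alike, the 4 most abundant, 3 on each side of the threshold, and neighbours within 20000 bp. Gene lists and cell-type markers set up by symbol could not be applied, since the IDs carry no names. Alternatives were other scalings, pseudocounts, filters, blocks, library weights, left-out libraries, linking at 90%, and 2 stretch levels added after seeing the data.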

Additional observations from a re-analysis of the deposited data

Results flagged for a closer look

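At 2 members every UV-B somatic library lay above every white-light somatic library while both UV-B gonidia libraries lay below every white-light gonidia library. Such a fall in gonidia was no more frequent at members (2.90%) than at eligible loci (4.63%) or all loci tested (4.72%). The log2 change in gonidia was -1.11 on scaffold 23 (1755238 to 1762009) and -0.33 on scaffold 1 (8793292 to 8799555). The difference between the cell types was not tested, because the somatic change was used to choose the loci. On the whole stretch by implied fragments, the scaffold 23 locus stood lower in letter B (0.655) and higher in letter C (1.17). The scaffold 1 locus stood higher in gonidia letter B (1.11), lower in C (0.846) and lower in somatic letter B (0.952). So neither kept its pattern by implied fragments. By FPKM times row length both kept these directions in every letter. The scaffold 23 locus gave 7.56, 2.29 and 4.35 in the somatic letters and 0.430 and 0.479 in gonidia. The scaffold 1 locus gave 2.73, 1.89 and 2.41 in the somatic letters and 0.676 and 0.974 in gonidia.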

How the results depend on the processing

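No member passed an adjusted p of 0.05 in gonidia in any of the 21 alternative fits. The lowest adjusted p of a member was 0.0829 (limma), without both B gonidia libraries. The count over all loci tested, 1 as reported, was 2 with a pseudocount of 0.1, 4 without a filter, 0 with gonidia libraries only, 0 with rows linked at 90% and 32 without both B libraries. It ran from 1 to 18 when a library was left out. The median log2 change of the members, 0.09, ran from 0.052 to 0.178 on leaving out a library. Of 249 values for the 12 loci named for their gonidia change, 243 kept their sign. The log2 change turned positive at Vocar20006020m.g.2.0 with library weights (0.0546) and ran from -1.20 to 0.0444 when a library was left out, the highest without white-light gonidia B. Such ranges were -0.319 to 0.0484 at Vocar20006221m.g.2.0 (highest without UV-B gonidia C) and -0.344 to 0.0432 on scaffold 34, 521074 to 525819 (highest without white-light gonidia C), where library weights gave 0.122. At Vocar20005997m.g.2.0 the range was -0.419 to 2.14, the lowest without UV-B gonidia B. The causes were not tested.

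With the letter within cell type as a replicate block, 2 loci and 0 members were called, and the members' median was 0.178. With a block shared by both cell types these were 1, 0 and 0.147. The blocks changed no call among the members.

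The number of members, 69, was 99 at 1.3-fold, 54 at 1.5-fold, 97 with FPKM as deposited and 48 with rows linked at 90%. On the whole stretch it was 23 by implied fragments and 49 by length-weighted level. These 2 ways were chosen after seeing the data, the second after the outcome of the first. The first kept 14 and the second 33 of the 34 members with little overlap. Which of them is nearer the true level was not tested. Both gonidia letters were higher under UV-B at 36 members by implied fragments and at 37 by length-weighted level, against 41 by row. Stretch levels were not computed for other loci, so the stretch counts have no share beside them.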
